A study of Mus musculus with 28 samples.

Results

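Wnt proteins and R-spondins are secreted signals that keep intestinal stem cells dividing. The 9 genes described here are 6 Wnt ligands (Wnt2b, Wnt3, Wnt4, Wnt5a, Wnt9b and Wnt11) and 3 R-spondins (Rspo1, Rspo2 and Rspo3). They were taken by gene name from the deposited expression tables. All 9 were listed among the 55416 genes of each of the 2 transcripts-per-million (TPM) tables. In the table of bone morphogenetic protein (BMP) treatments, 7 of the 9 were listed among 29413 genes, and Rspo1 and Rspo2 were not.

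The study, per its title, asked which members of the transforming growth factor superfamily direct the last steps of differentiation in enterocytes at the villus tip. RNA-seq of 28 mouse samples was used. The organoids were crypt-derived small-intestinal epithelium from wild-type C57BL/6 mice, first kept in ENR, a medium named for epidermal growth factor, Noggin (a secreted BMP antagonist) and R-spondin. In the BMP table, 4 samples were untreated and 4 received recombinant Bmp2, while Bmp3, Bmp4, Bmp5 and Bmp7 were given to 3 samples each, at 500 ng/ml for 24 h. A separate table held 3 untreated samples and 3 that received recombinant Tgfb, also at 500 ng/ml for 24 h. The third table held 2 samples of cultured Pdgfra-positive duodenal mesenchymal cells from a PdgfraH2BeGFP mouse, with no replicate. One was labelled fresh, and the other had been immortalised with a retrovirus carrying the E6 gene of a papillomavirus, selected with puromycin and sorted by eGFP (its title says HIGH). The labels do not say whether replicates came from separate cultures or mice, so p-values measure only the spread between these samples.

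As background, a Wnt ligand receives a lipid from Porcn, is carried to the cell surface by Wls, and binds Frizzled receptors together with Lrp5 or Lrp6. R-spondins bind Lgr receptors and hold back the ligases Rnf43 and Znrf3, which would otherwise remove Frizzled from the membrane. In the small intestine Wnt3 is the ligand known from Paneth cells at the crypt base, whereas most other Wnts and the R-spondins are known from the stroma beneath the epithelium.

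Wnt3 and Wnt9b, which fell together with 2 of the ligands, are neighbours on chromosome 11 in the RefSeq annotation, with 0 protein-coding genes between them and opposite orientations. Their promoter windows are shown with that of Wnt11, which rose with the same 2 ligands. Each line gives 250 bases upstream of the RefSeq start site in GRCm38.p6, read 5′ to 3′ on the gene's strand. Capitals mark matches, on either strand, to GTCTAGAC (a Smad palindrome), GGCGCC (a GC-rich Smad box) or CTTTGAT (a TCF core).
Wnt3, chr11:103773925-103774174 (+ strand): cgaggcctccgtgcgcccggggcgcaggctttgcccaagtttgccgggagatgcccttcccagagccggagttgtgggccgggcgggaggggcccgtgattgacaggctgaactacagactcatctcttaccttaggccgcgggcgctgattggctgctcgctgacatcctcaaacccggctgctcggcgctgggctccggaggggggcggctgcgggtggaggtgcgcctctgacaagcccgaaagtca
Wnt9b, chr11:103749822-103750071 (- strand): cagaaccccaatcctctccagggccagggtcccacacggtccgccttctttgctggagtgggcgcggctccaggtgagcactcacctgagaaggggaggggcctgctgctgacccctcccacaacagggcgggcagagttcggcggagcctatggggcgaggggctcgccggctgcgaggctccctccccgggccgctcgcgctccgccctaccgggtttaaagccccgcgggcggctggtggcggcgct
Wnt11, chr7:98834862-98835111 (+ strand): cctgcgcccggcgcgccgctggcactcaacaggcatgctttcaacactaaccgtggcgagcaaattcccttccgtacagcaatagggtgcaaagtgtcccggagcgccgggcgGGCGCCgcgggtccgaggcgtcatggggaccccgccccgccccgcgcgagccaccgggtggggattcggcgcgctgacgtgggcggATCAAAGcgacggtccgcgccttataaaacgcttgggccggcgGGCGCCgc
RefSeq entries matched 6 of the 9 genes, with 7 promoters in all. Neither the Wnt3 nor the Wnt9b window held any of these letters. The GC-rich box stood in 4 of the 7 windows, those of Wnt2b, Rspo1, Wnt4 and the first Wnt11 promoter, against 9.59% of 32851 promoters. In that order, G and C made up 80.8%, 66.8%, 85.2% and 70.8% of these windows. In the windows without the box the share was 56.8% (second Wnt11 promoter), 72.0% (Wnt9b) and 68.0% (Wnt3). The box holds only G and C, and the 9.59% was not matched for base content. The TCF core stood in 1 of the 7, the Wnt11 window, against 3.21% of all promoters. The Smad palindrome stood in 0 of the 7, against 0.167% of all promoters. A match is only a description of the letters.

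Before the ligands were compared, the samples were checked against marker genes. In untreated organoids all 7 epithelial markers and all 9 Paneth cell markers reached at least 1 unit in both organoid tables, and in both mesenchymal samples all 9 mesenchymal markers reached 1 TPM. The sum of the epithelial markers was 15.0 TPM in fresh and 6.68 TPM in immortalised mesenchyme, against 3470 to 3800 TPM in untreated organoids. The sum of 5 immune markers was 118 TPM in fresh and 10.7 TPM in immortalised cells, and that of 4 endothelial markers was 16.8 and 0.793 TPM. The BMP table rested on 21356032 to 24775596 recovered reads per sample. The depth of the TPM tables is unknown.

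The sources of the 9 genes were read from the TPM tables, which are per transcript length but were scaled separately, so levels set across them are descriptive. Wnt3 and Wnt9b were the members at a higher level in the epithelium, and the other 7 were at a higher level in fresh mesenchyme. At 1 TPM or more stood 6 of 9 members in fresh mesenchyme, where 24.5% of all genes did so, and 1 of 9 in untreated organoids, where 22.7% did. These shares are descriptive.

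In the 3 untreated organoid samples Wnt3 was at 3.65, 4.53 and 3.87 TPM. In fresh mesenchyme it was at 0.0189 TPM, and in immortalised cells it was listed at 0. Wnt9b, a ligand best known from kidney development, was at 0.234, 0.339 and 0.295 TPM in untreated organoids and was listed at 0 in both mesenchymal samples. These were the only 2 members with a lower level in fresh mesenchyme than in untreated organoids.

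Of the mesenchymal members, Wnt5a, the prototype of the ligands that signal without beta-catenin, was at 46.6 TPM in fresh cells. Rspo3, the R-spondin known as the main one of the intestinal stroma, was close behind at 44.7 TPM. Rspo1, another Lgr ligand, was at 13.8 TPM and Wnt2b, a stromal ligand of the beta-catenin pathway, at 6.65 TPM. Lower levels were found for Wnt4, known from kidney and ovary development, at 4.16 TPM, and for Wnt11, known from cell movements in the embryo, at 3.20 TPM. Rspo2 was lowest of the mesenchymal members at 0.301 TPM. In untreated organoids the mean levels of these 7 genes were 0.0598 TPM or lower, and Rspo1, Rspo2 and Wnt2b were listed at 0 in all 3 samples.

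**Figure D1:**
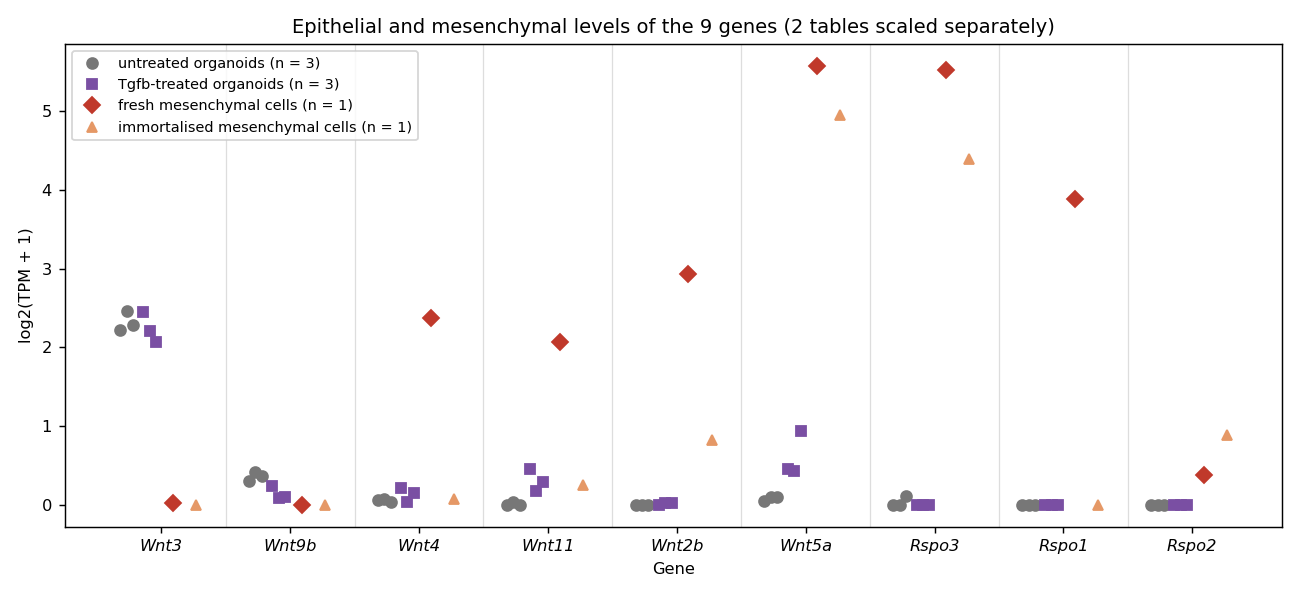
Levels of the 9 genes as log2(TPM + 1), with 1 point per sample: 3 untreated and 3 Tgfb-treated organoid samples and 1 sample each of fresh and immortalised mesenchymal cells. Wnt3 and Wnt9b lie higher in untreated organoids, and the other 7 genes lie higher in fresh mesenchyme, with Wnt5a (46.6 TPM) and Rspo3 (44.7 TPM) at the top.

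Between the 2 mesenchymal samples there is no replicate and no test. Most stromal members were at a lower level in the immortalised cells. By a 2-fold rule on log2(TPM + 1), among genes with a mean of at least 1 TPM, 5 members were lower and none was higher, where 10.7% of 13652 genes were lower, 6.26% were higher and 17.0% passed in either direction. Wnt2b was at 0.772 TPM in immortalised cells, Wnt4 at 0.0522, Wnt11 at 0.194 and Rspo3 at 19.9 TPM, and Rspo1 was listed at 0. Of these 5, all except Rspo3 were below 1 TPM in the immortalised sample and so met the level filter through the fresh sample, which leaves little to read from the count. Wnt5a, at 29.8 TPM against 46.6, did not pass the 2-fold rule. Rspo2 was the one member at a higher level in the immortalised sample, at 0.852 against 0.301 TPM, both under 1 TPM. The summed mesenchymal markers were 17700 TPM in fresh and 5600 TPM in immortalised cells, and the immune and endothelial sums were lower too. Other stromal lists did not fall. The trophocyte sum was 1230 TPM in fresh and 2900 TPM in immortalised cells, and that of smooth muscle and pericyte markers 5630 and 7680 TPM. The sum for Pdgfra-high telocytes was 437 and 433 TPM. The part of these cell types in the differences between the 2 samples was not tested.

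In the BMP table the values are read counts divided by a size factor per sample, so only the same gene can be compared between samples. Of the 7 members listed, 4 averaged 10 or more across the 20 samples and were tested: Wnt3, Wnt9b, Wnt5a and Wnt4. Bmp2 lowered Wnt3 and Wnt9b and raised Wnt5a, and Bmp4 lowered Wnt3 and Wnt9b. With limma and Benjamini-Hochberg adjustment over 14746 genes, 3 of the 4 passed an adjusted p of 0.05 with Bmp2, where 75.1% of all genes did, and 2 of the 4 with Bmp4, where 65.1% did. A share near the background says nothing about the members as a group. Wnt5a met the level filter only through the Bmp2 samples, so its count there carries no weight.

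Wnt3, the Paneth cell ligand, had normalized counts of 215, 190, 230 and 202 in the 4 controls. The 4 Bmp2 samples held 34.1, 44.8, 56.5 and 39.2. The 3 Bmp4 samples held 53.3, 65.0 and 56.2. Every Bmp2 and Bmp4 sample lay below every control, as in 34.4% and 31.0% of all genes tested, and 67.6% and 64.8% did not overlap in either direction. Means were 209 ± 17.2 (SD, n = 4) in controls, 43.7 ± 9.62 (SD, n = 4) with Bmp2 and 58.2 ± 6.09 (SD, n = 3) with Bmp4. Wnt3 fell by 2.26 on the log2(value + 1) scale with Bmp2 (SE 0.141, limma adjusted p = 5.4e-11). It fell by 1.83 with Bmp4 (SE 0.153, limma adjusted p = 8.91e-09).

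The remaining ligands left Wnt3 near the control level. It was at 207, 226 and 194 with Bmp3, at 218, 195 and 198 with Bmp5, and at 169, 178 and 206 with Bmp7. These ranges overlapped the controls, and limma gave adjusted p = 1.0, 0.887 and 0.375. The 6 groups thus fell into a high set of controls, Bmp3, Bmp5 and Bmp7, within which none of the 6 pairs passed, and a low set of Bmp4 and Bmp2. Across the 2 sets, all 8 pairs passed, the weakest with a limma adjusted p of 1.04e-07. Inside the low set Wnt3 was lower with Bmp2 than with Bmp4 by a log2 difference of -0.43 (SE 0.153, limma adjusted p = 0.0197). That call was lost in 6 of 18 alternatives: with edgeR (adjusted p = 0.0557), with DESeq2 (0.0543), and with limma under quantile normalization (0.0594), in a fit of the 2 groups alone (0.17), without Bmp2 replicate II (0.0658) and without Bmp4 replicate III (0.0911). In all, 15 pairs of groups were compared.

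Paneth cell markers were read beside Wnt3. With Bmp2, 0 of 9 rose and 8 of 9 fell (median log2 change -1.09, against -0.03 over all genes), and with Bmp4, 0 rose and 1 of 9 fell (median -0.47, against 0.04). Of all genes, 38.4% fell with Bmp2 and 31.4% with Bmp4. Between Bmp2 and Bmp4, 4 of 9 were lower with Bmp2. The summed Paneth markers ranged from 119000 to 148000 normalized counts in controls, from 40000 to 105000 with Bmp2 and from 60400 to 126000 with Bmp4. With Bmp7, where Wnt3 overlapped the controls, the sum was also below every control, at 84900 to 103000. It was 114000 to 127000 with Bmp3 and 100000 to 132000 with Bmp5. The part of Paneth cells in the fall of Wnt3 was not tested. In bulk samples, fewer cells of a type and less RNA per cell cannot be told apart.

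As a description of pattern, the 3 genes most like Wnt3 over the 20 samples, among 14746, were Ccdc125 (Pearson r = 0.985), Elp2 (r = 0.98) and Rps6ka6 (r = 0.98). The samples share libraries and scaling across genes. Mean normalized counts of Ccdc125 were 216 in controls, 39.8 with Bmp2 and 54.1 with Bmp4.

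Wnt9b had normalized counts of 27.5, 21.6, 31.0 and 27.3 in the controls. In Bmp2 samples it was at 4.54, 0, 0 and 3.80, and in Bmp4 samples at 1.19, 0 and 7.18. No treated sample of these 2 groups reached a control, as in 34.4% of all genes tested with Bmp2 and 31.0% with Bmp4. The values stand for 125 reads over the 4 controls, 7 over the 4 Bmp2 samples and 7 over the 3 Bmp4 samples. Wnt9b fell by 3.61 on the log2(value + 1) scale with Bmp2 (SE 0.598, limma adjusted p = 2.31e-05) and by 3.40 with Bmp4 (SE 0.646, limma adjusted p = 0.000142). At such low levels the size depends on the pseudocount: with 0.1 in place of 1 it was -5.36 with Bmp2, and with 5 it was -2.23 with Bmp2 and -2.13 with Bmp4. The Bmp2 and Bmp4 groups overlapped each other (limma adjusted p = 0.798).

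With Bmp7, Wnt9b values lay between those of the controls and those with Bmp2 or Bmp4, but did not pass against the controls. The Bmp7 samples held 15.4, 15.5 and 11.5 normalized counts, below all 4 controls. The share of all genes that lay below all controls with Bmp7 was not counted. Bmp5 (35.9, 18.5 and 20.1) and Bmp3 (38.2, 28.7 and 21.9) overlapped the controls. The ratio of Bmp7 to control reads was 0.53, with an exact 95% interval of 0.37 to 0.749 that covers counting error only. In the fit of all 6 groups the log2 difference was -0.88 (SE 0.646) and did not pass (limma adjusted p = 0.312). It passed in 1 of 17 alternatives, a limma fit of the 2 groups compared (adjusted p = 0.0271). Wnt9b was higher with Bmp7 than with Bmp2 (log2 difference 2.72, limma adjusted p = 0.00125) and than with Bmp4 (2.52, limma adjusted p = 0.00412).

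Wnt5a was low in untreated organoids, at 2.66, 4.15, 6.21 and 1.65 normalized counts. In the Bmp2 samples it was at 51.1, 85.7, 82.3 and 77.2. All 4 Bmp2 samples stood above all 16 others, the highest of which held 7.18. Such a gap above the controls was seen in 33.2% of genes with Bmp2 and in 33.8% with Bmp4. Wnt5a rose by 4.08 with Bmp2 on the log2(value + 1) scale (SE 0.557, limma adjusted p = 2.23e-06), on 243 reads against 17 in the controls, a ratio of 20.2 (12.4 to 35.3, counting error only). It met the level filter only through the Bmp2 samples, which favoured this call in advance.

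The response of Wnt5a differed between Bmp2 and Bmp4, which shared the fall of Wnt3. With Bmp4 it was at 1.19, 5.70 and 7.18 normalized counts, overlapping the controls. The difference of Bmp2 over Bmp4 was 3.90 (SE 0.602, limma adjusted p = 1.39e-05). Wnt5a was also higher with Bmp2 than with Bmp3, Bmp5 or Bmp7, by 4.56, 3.93 and 4.59, with limma adjusted p of 1.57e-06, 1.49e-05 and 2.75e-06. These tests of Bmp2 against other ligands were likewise favoured in advance, since only the Bmp2 samples brought Wnt5a past the level filter.

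Because fresh mesenchyme held Wnt5a at a high level, mesenchymal markers were read in the same organoids. Of 9 markers, 7 were listed in the BMP table and Dcn and Lum were not. Their sum was 134 to 221 normalized counts in controls and 70.4 to 93.0 with Bmp2. Only 1 of the 7 met the level filter, and it fell with Bmp2 (log2 change -2.07), where 38.4% of all genes fell. The sum thus does not stand for the 7 genes as a set. Col6a1 was at 0 in every Bmp2 sample, and Col3a1 was at most at 1.18. Pdgfra itself was at 12.8 to 37.5 with Bmp2 against at most 1.78 in controls, and Col1a1 was at 10.2 to 20.5 against 0.826 to 19.5. Of 5 markers of Pdgfra-high telocytes, a subepithelial cell type, Foxl1 was at most at 1.18 and Bmp5 at most at 1.27 with Bmp2, both at 0 in controls. The sum of the 5 was 1760 to 2220 in controls, 27800 to 39200 with Bmp2 and 2270 to 3190 with Bmp4, nearly all of it from F3, the gene of tissue factor, at 758 to 1260 in controls and 27700 to 39100 with Bmp2. Of the 3 tested, 1 rose and 2 fell with Bmp2. The part of other cells in the rise of Wnt5a was not tested.

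Wnt11, another ligand known for beta-catenin-independent signalling, also rose with Bmp2, and here Bmp4 shared the direction. Control values were 0.888, 0.83, 0 and 0 normalized counts. The Bmp2 samples held 11.4, 5.11, 18.8 and 24.0, and the Bmp4 samples 3.56, 5.70 and 9.57. Every sample of both groups lay above every control. Among genes with a mean of at least 10, 33.2% did so with Bmp2 and 33.8% with Bmp4, and the share among lower genes was not counted. The ratio of reads to controls was 34.7 with Bmp2 (9.1 to 294) and 14.6 with Bmp4 (3.44 to 131), on only 2 control reads and for counting error only. Wnt11 was below the mean of 10 and was tested with a mean of at least 1, over 21319 genes. It rose by 3.35 with Bmp2 (SE 0.519, limma adjusted p = 1.13e-05) and by 2.33 with Bmp4 (SE 0.561, limma adjusted p = 0.00161), where 59.4% and 48.7% of genes passed, and it also passed the test among the 5 ligands (limma adjusted p = 0.000111, 66.2% of genes). It met that filter only through treated samples. With pseudocounts of 0.1 and 5 the change was 5.38 and 1.76 with Bmp2, and 4.25 and 1.02 with Bmp4.

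With Bmp5 Wnt11 was at 1.79, 0 and 3.65 normalized counts, and with Bmp7 at 1.81, 0.911 and 2.89. The lowest Bmp5 sample lay among the controls, and all 3 Bmp7 samples lay slightly above them. Neither passed (limma adjusted p = 0.401 and 0.218), where 17.5% and 22.3% of genes did. Bmp2 and Bmp4 did not differ past the threshold (log2 difference 1.02, SE 0.561, limma adjusted p = 0.142), which does not show that they act alike, and 51.2% of genes did differ. The difference passed without Bmp2 replicate III (limma adjusted p = 0.0421) and with a pseudocount of 5 (0.0357).

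Wnt2b, the stromal ligand, was at 3.41, 5.11, 2.35 and 5.06 normalized counts with Bmp2. Controls held 0, 1.66, 0.887 and 0.826, so the groups did not overlap, on 13 reads against 4. Such a gap was seen in 33.2% of genes with a mean of at least 10, and was not counted among lower genes. Wnt2b rose by 1.47 on the log2(value + 1) scale (SE 0.425, limma adjusted p = 0.00525, mean of at least 1), where 59.4% of genes passed. It met that filter only through the Bmp2 samples. The call was lost with DESeq2 (adjusted p = 0.157) and with a pseudocount of 0.1 (limma, 0.0656). In the other ligand groups it was at most at 1.81.

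Wnt4 varied widely among untreated samples, at 7.10, 9.96, 25.7 and 19.8 normalized counts. The Bmp4 samples held 20.1, 25.1 and 35.9, overlapping the controls. In the main fit, which did not use replicate numbers, Wnt4 did not pass (log2 difference 0.87, SE 0.547, limma adjusted p = 0.172). With the replicate number as a block it passed (1.24, limma adjusted p = 0.00607), so this call depends on the pairing. Same-numbered Bmp4 and control samples were 20.1 and 7.10, 25.1 and 9.96, and 35.9 and 19.8, higher with Bmp4 in 3 of 3. With Bmp2 Wnt4 was at 12.5, 5.11, 22.4 and 6.33, among the controls.

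Wnt4 was lower with Bmp2 than with Bmp4 by a log2 difference of -1.32 (SE 0.547, limma adjusted p = 0.0402), near the threshold. The call was lost with edgeR (adjusted p = 0.0814), with DESeq2 (0.0684) and, with limma, with no filter (0.0705) and without Bmp2 replicate III (0.119), Bmp2 replicate VI (0.0985), Bmp4 replicate III (0.0746) or Bmp4 replicate VI (0.134). Between Bmp2 and Bmp4, 3 of the 4 tested members passed, where 66.8% of all genes did. Of these, Wnt5a met the level filter only through the Bmp2 samples, so the count carries little weight. Wnt4 with Bmp3 was at 3.56, 6.76 and 23.6, with Bmp5 at 8.97, 10.2 and 11.9 and with Bmp7 at 5.44, 8.20 and 7.70 normalized counts. Against the control of the same number, Wnt4 was lower in 3 of 3 Bmp3 samples and in 3 of 3 Bmp7 samples. Neither comparison passed with limma, with or without the replicate block. The reads were few, at 4, 8 and 27 with Bmp3 and 6, 9 and 8 with Bmp7.

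Rspo3 was barely detected in any organoid. It held 0 or 1 read in each of the 20 samples, at most 1.28 normalized counts, and was too low to test. Every gene in that table had a value above 0 in at least 1 sample, and Rspo1 and Rspo2 were not listed. A change of any of the 3 R-spondins with the ligands was not detectable at this depth.

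**Figure D2:**
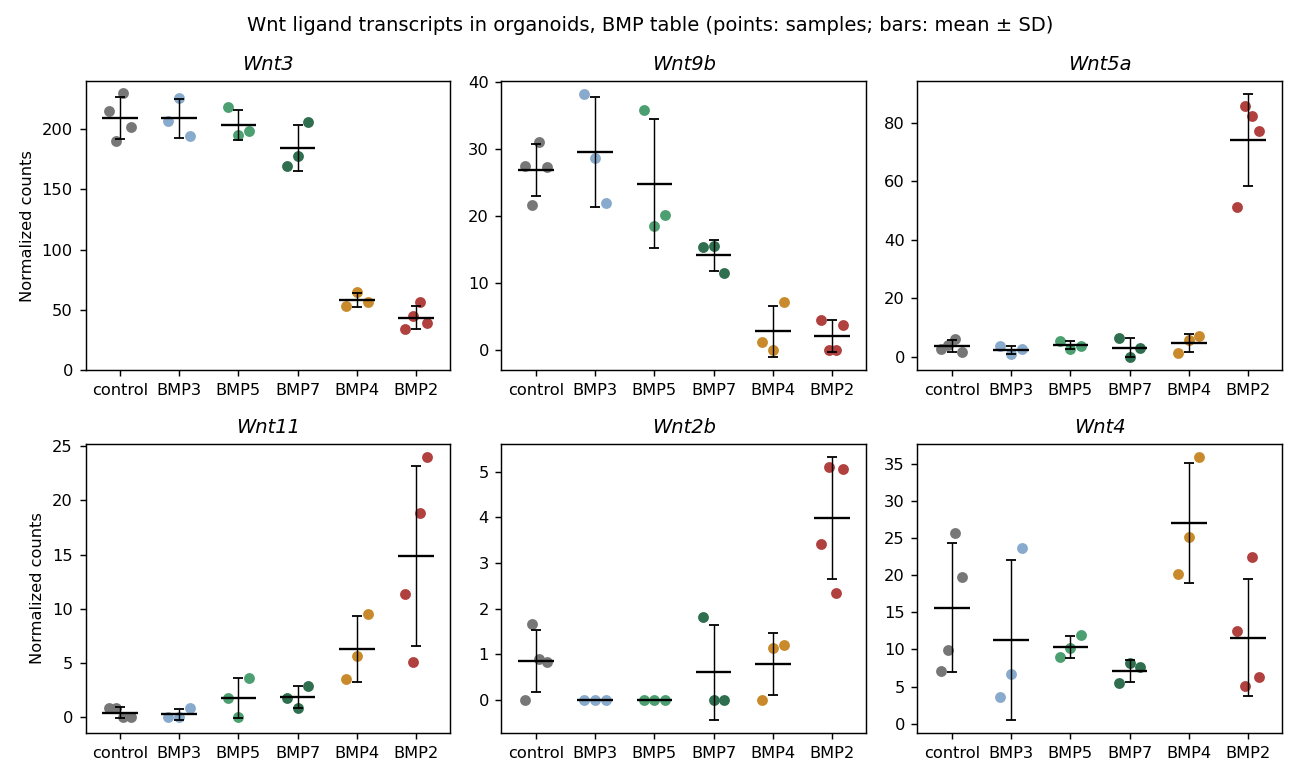
Normalized counts of the 6 Wnt ligands in the 20 samples of the BMP table, by treatment, with points for samples, horizontal lines for means and bars for the SD. Wnt3 and Wnt9b are low with Bmp4 and Bmp2, Wnt5a is high in the 4 Bmp2 samples (51.1 to 85.7), and Wnt11 is above all controls with Bmp4 and Bmp2.

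Among the 5 ligands the difference was tested with limma's moderated F-test, where 84.1% of all genes passed. Wnt3 (adjusted p = 7.76e-11), Wnt5a (2.03e-06) and Wnt9b (2.98e-05) passed, and Wnt4 did not in this unpaired fit (0.0698). Wnt5a entered this test only through the Bmp2 samples, so it had to differ. Wnt4 passed with DESeq2 (0.0393), under quantile normalization (limma, 0.0491) and with the replicate block (limma, 0.00125). It also passed, with limma, without Bmp2 replicate IV (0.0356) and without Bmp3 replicate IV (0.0117), the samples at 22.4 and 23.6 normalized counts. With Bmp3, 0 of the 4 tested members passed with limma, edgeR or DESeq2, and 0 had an unadjusted p under 0.05, where 0.0% of all genes passed with limma. With Bmp5, 0 of the 4 passed with limma, edgeR or DESeq2, and 0 had an unadjusted p under 0.05, where 26.3% of genes passed. With Bmp7, 0 of the 4 passed with these 3 tools, 0 had an unadjusted p under 0.05 with limma or edgeR and 1 with DESeq2, where 32.4% of genes passed. Between Bmp5 and Bmp7, 0 of the 4 passed with these tools and 0 had an unadjusted p under 0.05, where 0.0136% of genes passed. All comparisons with the controls share the same 4 control samples.

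In the Tgfb table Wnt3 was the one member with a mean of at least 1 TPM. It was at 4.44, 3.63 and 3.19 TPM with Tgfb, overlapping the untreated samples given above, and did not pass (limma adjusted p = 0.637, unadjusted p = 0.572), where 56.7% of 12959 genes did. The fall of Wnt3 seen with Bmp2 and Bmp4 was thus not seen with Tgfb in its own table, and the difference between tables was not tested.

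The other members were too low for that filter and were fitted with no filter, over 26322 genes, of which 29.8% passed. Wnt5a was at 0.0339, 0.0703 and 0.0751 TPM untreated and at 0.369, 0.348 and 0.910 TPM with Tgfb. Wnt11 was at 0, 0.0293 and 0 TPM untreated and at 0.370, 0.133 and 0.224 TPM with Tgfb. Wnt9b was at 0.184, 0.0601 and 0.0704 TPM with Tgfb. In these 3 genes the groups did not overlap, as in 41.7% of genes (21.3% with Tgfb higher and 20.4% with it lower). In the unfiltered fit Wnt5a rose by 0.52 (SE 0.143, limma adjusted p = 0.042), Wnt11 rose by 0.295 (SE 0.072, adjusted p = 0.0279) and Wnt9b fell by 0.22 (SE 0.059, adjusted p = 0.0373), all on the log2(TPM + 1) scale, which compresses such low levels.

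Each of these 3 calls was lost when any 1 control sample was left out: without control I, II and III the limma adjusted p was 0.115, 0.106 and 0.1 for Wnt5a, 0.0843, 0.0702 and 0.0834 for Wnt11, and 0.0505, 0.107 and 0.0963 for Wnt9b. Without Tgfb replicate I it was 0.0545 for Wnt5a, without Tgfb replicate II 0.108 for Wnt9b, and without Tgfb replicate III 0.0703 for Wnt11 and 0.112 for Wnt9b. The Wnt5a call was also lost with a pseudocount of 5 (0.0688) and under quantile normalization (0.0505). The Wnt9b call was also lost with a pseudocount of 0.1 (0.0786), with a mean of at least 0.1 TPM (0.0809) and with both (0.084). Rspo1 and Rspo2 were listed at 0 in all 6 samples. Rspo3 was at 0.0771 TPM in 1 untreated sample and at 0 in the other 5.

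Of 14 other Wnt ligands and R-spondins, 9 were listed in the BMP table and 4 could be tested. With Bmp2, Bmp5 and Bmp7 all 4 rose and with Bmp4 2 of the 4 rose, where 36.8%, 16.5%, 19.2% and 33.7% of all genes rose. Wnt7b, Wnt9a and Wnt10a met the level filter only through treated samples, so these counts carry little weight. Wnt7a, a ligand known from limb and brain, was at 7.43 to 13.3 normalized counts in controls, and 152 to 303 with Bmp2. Bmp5 samples held 48.4 to 87.1, Bmp7 samples 54.7 to 70.8 and Bmp4 samples 15.4 to 33.5. It rose with each of these ligands in that order (log2 change 4.33, 2.61, 2.57 and 1.05, limma adjusted p = 6.71e-11, 4.54e-06, 3.27e-06 and 0.0046), and with Bmp4 the call was lost when all samples were scaled to one total (adjusted p = 0.055).

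Wnt10a was at 0.83 to 1.77 normalized counts in controls, 11.8 to 48.6 with Bmp2, 8.97 to 50.0 with Bmp5 and 19.1 to 33.7 with Bmp7. With Bmp4 it was at 0 to 2.37, overlapping the controls. Wnt10a passed with Bmp5 and with Bmp7 (limma adjusted p = 0.000116 for each), having met the level filter only through treated samples. Wnt5a did not pass with either (0.886 and 0.541), and a difference between these genes was not tested. Wnt9a was at 3.32 to 8.87 in controls and 77.2 to 147 with Bmp2, and its call with Bmp5 was lost without Bmp5 replicate III (limma adjusted p = 0.0628) or VI (0.125), and with Bmp7 without Bmp7 replicate VI (0.0575). Rspo4, the remaining R-spondin, was at 0.911 to 18.2 across the 20 samples, below the filter.

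With Tgfb the same 4 ligands were too low for the filter. Wnt10a was listed at 0 in all 3 untreated samples and was at 1.48 to 1.79 TPM with Tgfb (unfiltered limma adjusted p = 0.000145). Wnt7b was listed at 0 untreated and was at 0.247 to 0.483 TPM with Tgfb (0.00656). Wnt9a was at 0.0158 to 0.118 TPM untreated and 0.483 to 0.767 TPM with Tgfb (0.00333). Wnt7a did not pass (0.115).

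Of the 2 Wnt secretion genes, Porcn and Wls, both rose with Bmp2, Bmp5 and Bmp7, where 36.8%, 16.5% and 19.2% of all genes rose. Porcn was at 63.9 to 88.4 normalized counts in controls and 220 to 310 with Bmp2 (log2 change 1.78, SE 0.213, limma adjusted p = 3.91e-07). Wls was at 946 to 1210 in controls. Bmp2 samples held 1780 to 2310 and Bmp4 samples 415 to 573. It rose by 0.91 with Bmp2 (SE 0.102, limma adjusted p = 1.6e-07) and fell by 1.10 with Bmp4 (SE 0.11, limma adjusted p = 8.67e-08). Bmp2 and Bmp4, which both lowered Wnt3, thus moved the ligand carrier in opposite directions (difference 2.01, limma adjusted p = 1.98e-11). With Tgfb both genes rose, where 27.4% of all genes did. Porcn was at 1.27 to 1.86 TPM untreated and 6.11 to 7.57 TPM with Tgfb (limma adjusted p = 0.000134). Wls was at 17.8 to 21.4 TPM untreated and 52.3 to 66.3 TPM with Tgfb (limma adjusted p = 9.15e-05).

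**Figure D3:**
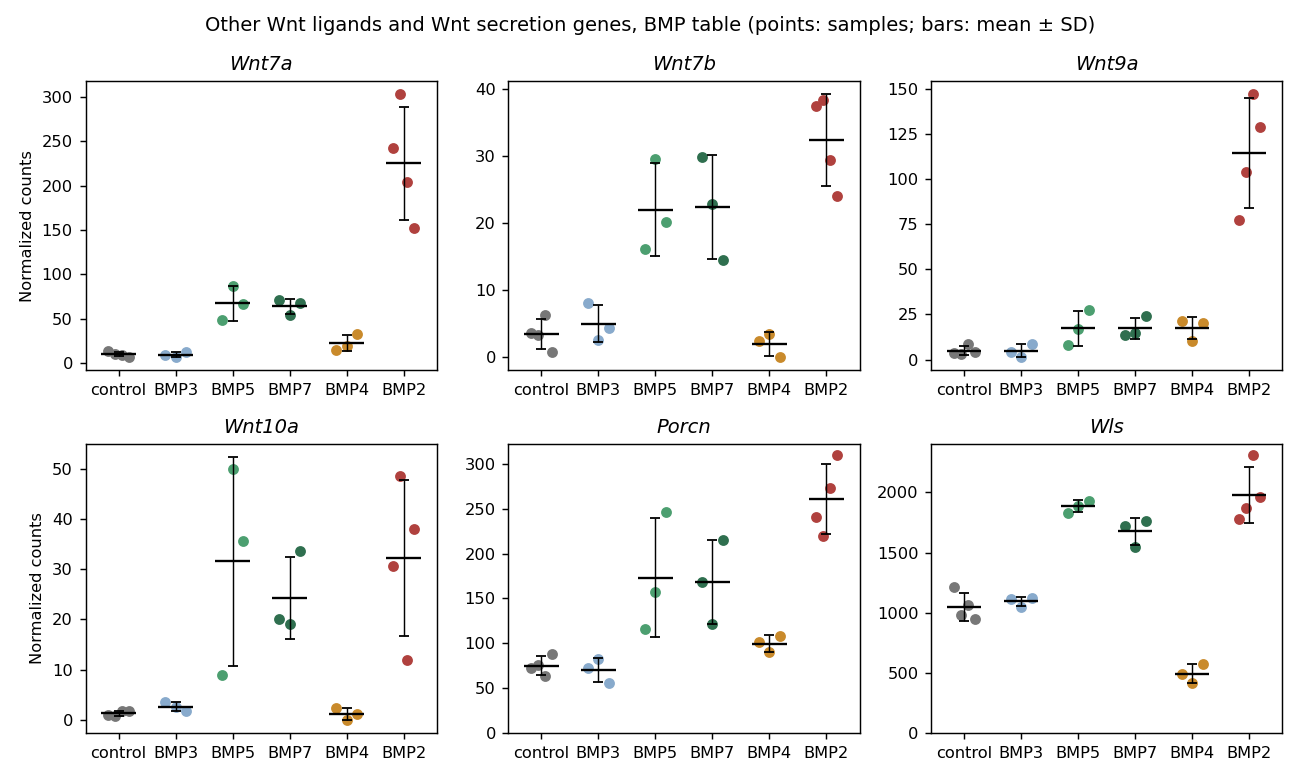
Normalized counts of 4 other Wnt ligands and of Porcn and Wls in the 20 samples of the BMP table, with points for samples, horizontal lines for means and bars for the SD. Wls is above all controls with Bmp2, Bmp5 and Bmp7 and below all of them with Bmp4, and Wnt10a is high with Bmp5, Bmp7 and Bmp2. Of all genes tested, 33.2% lay above all controls with Bmp2 and 31.0% below them with Bmp4. These shares were not counted for Bmp5 or Bmp7.

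On the receiving side, 13 of 15 Wnt receptors were tested. With Bmp2 2 rose and 7 fell, with Bmp4 0 rose and 8 fell, with Bmp5 3 rose and 2 fell, and with Bmp7 1 rose and 2 fell. In the same order, 38.4%, 31.4%, 9.87% and 13.2% of all genes fell. The Bmp5 and Bmp7 counts were unstable. With Bmp5, 1 rose without any 1 of the 4 controls or without Bmp5 replicate III, and 1 fell without control III, control VI or Bmp5 replicate VI. With Bmp7, 2 rose without control II, and 1 fell without control II, III or VI or Bmp7 replicate II or VI. With the replicate block, 5 rose with Bmp5 and 4 with Bmp7. Fzd9 was at 47.0 to 59.7 normalized counts in controls, 0 to 5.88 with Bmp2 and 1.20 to 2.37 with Bmp4. Fzd2 fell by 3.97 with Bmp4 (SE 0.194, limma adjusted p = 1.66e-11) and rose by 0.91 with Bmp5 (SE 0.194, limma adjusted p = 0.00176). With Tgfb 3 of 11 rose, where 27.4% of genes did, and 2 fell, where 29.3% did.

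Of 5 R-spondin receptors and ligases, 4 were tested, and 2 of these fell with Bmp2 and with Bmp4, where 38.4% and 31.4% of all genes fell, so the count is near the background. Lgr5, the stem cell receptor, was at 3150 to 5210 normalized counts in controls, 3.53 to 17.7 with Bmp2, 13.2 to 34.4 with Bmp4 and 1070 to 2050 with Bmp7. It fell by 8.84 with Bmp2 (SE 0.375, limma adjusted p = 5.89e-13), fell by 7.37 with Bmp4 (SE 0.405, limma adjusted p = 6.8e-11) and fell by 1.56 with Bmp7 (SE 0.405, limma adjusted p = 0.00632). Lgr4 was between 3810 and 7170 in all 6 groups and did not pass the test among the 5 ligands (limma adjusted p = 0.291), but under one total per sample or quantile normalization all 4 tested genes of this list fell with Bmp2 and with Bmp4. Znrf3 fell with Bmp2 and Bmp4, by 0.88 and 2.05 (limma adjusted p = 3.88e-05 and 5.62e-09), and Rnf43 rose with Bmp5 and Bmp7, by 0.54 and 0.53 (limma adjusted p = 0.000158 and 0.000138).

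Of 10 secreted Wnt inhibitors, 3 could be tested. Sfrp5, which binds Wnt ligands, was at 148 to 202 normalized counts in controls and did not exceed 1.28 in Bmp2 samples, 3.56 in Bmp4, 28.7 in Bmp5 and 21.9 in Bmp7 samples. It fell with each ligand (limma adjusted p = 4.49e-11, 2.34e-09, 0.000113 and 1.26e-05). With Tgfb it fell from 6.48 to 9.61 TPM to 0.196 to 0.467 TPM (limma adjusted p = 4.64e-05). Dkk2, which blocks Lrp5 and Lrp6, was at 0 to 1.65 normalized counts in controls and 25.9 to 81.8 with Bmp2, and was at 0 in all Bmp4 samples. It was thus, like Wnt5a, higher with Bmp2 than with Bmp4 (limma adjusted p = 1.06e-07). In fresh mesenchyme Dkk2 was at 33.3 TPM. Wif1 was at 0 to 2.66 in controls, 17.7 to 34.1 with Bmp2 and 13.2 to 21.7 with Bmp4. Dkk2 and Wif1 met the filter only through treated samples.

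Of 12 Wnt target genes, 5 rose and 5 fell with Bmp2, 1 rose and 10 fell with Bmp4, and 6 rose and 0 fell with Bmp5 and with Bmp7. Medians of the log2 change were -0.06, -1.23, 0.63 and 0.64, against -0.03, 0.04, -0.03 and -0.05 over all genes. Of all genes, 36.8% rose and 38.4% fell with Bmp2, which is near the share of targets, 33.7% rose and 31.4% fell with Bmp4, 16.5% rose and 9.87% fell with Bmp5, and 19.2% rose and 13.2% fell with Bmp7. A single target met the level filter only through treated samples. The single rise with Bmp4 was lost without control II or Bmp4 replicate III, leaving 0, and 1 fell with Bmp5 without Bmp5 replicate II. Ascl2, a stem cell factor, fell by 3.19 with Bmp2 and by 3.98 with Bmp4 (limma adjusted p = 1.13e-09 and 7.92e-10). Cd44 rose by 3.08 with Bmp2 and fell by 1.40 with Bmp4 (limma adjusted p = 2.3e-13 and 1.99e-08). With Tgfb 7 of 11 rose and 2 fell, where 27.4% of all genes rose and 29.3% fell.

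**Figure D4:**
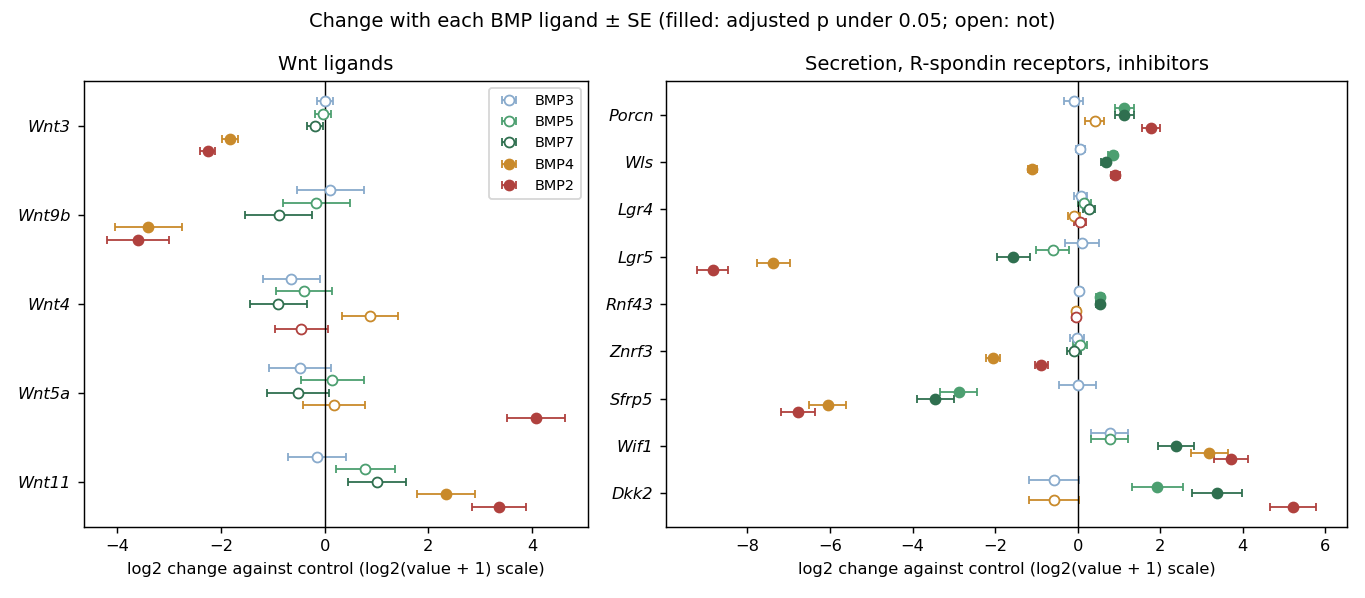
Log2 change against control on the log2(value + 1) scale for each BMP ligand, with bars for the SE, for 5 Wnt ligands and for 9 genes of Wnt secretion, R-spondin reception and inhibition; filled points passed an adjusted p of 0.05 with limma. Wnt5a passed with Bmp2 alone, Wnt3 and Wnt9b passed with Bmp2 and Bmp4, and Wls fell with Bmp4 while it rose with Bmp2, Bmp5 and Bmp7. Wnt11 comes from the fit with a mean of at least 1.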

How the data were processed

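RNA was measured by sequencing of polyadenylated RNA libraries (KAPA mRNA kit, NextSeq, single-end, per the labels' protocols and the series' design text). Libraries went through several sequencing runs, and no label ties a sample to a run, so a run cannot be told apart from the groups. The submitters' processing notes name Trim Galore, Salmon, DESeq2 and the build GRCm39. In the BMP table the deposited values are a signal, counts divided by a size factor: of 180721 values up to 20 reads, 100% were whole multiples of 1 read (tolerance 0.1 read). The other 2 deposited tables hold TPM, since each column sums to 1000000, and keep no depth. There were 0 unmapped columns.

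Tests used limma 3.58.1 (R 4.3.3) on log2(value + 1), two-sided, with an intensity trend and Benjamini-Hochberg adjustment over all genes with a mean of at least 10 (BMP table, 14746 genes, all 6 groups in one fit) or 1 TPM (12959 genes). A lower filter (a mean of at least 1, or none) served members below these means. On recovered whole reads, edgeR 4.0.16 called 11104 genes with Bmp2 and DESeq2 1.42.0 called 11171, against 11077 with limma. Alternatives covered pseudocounts, filters, scaling, replicate blocks, left-out samples and fits of fewer groups. Data were also simulated from the control means, with the same spread setting for every gene. Only 200 genes were changed, all with control means of at least 10. Of those changed 2-fold, limma recovered 92.9%, among 14467 genes. With Bmp2 itself 75.1% of genes were called, so this rate does not carry over to it or to members with lower control means. Intervals are exact binomial and cover counting error only, since PCR copies were not told apart from molecules.

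The genes, lists and motifs were chosen with earlier results of these data known. All 9 members were named, and from each list up to 4 genes with the smallest adjusted p among those past the threshold. Lgr4, Dkk2 in mesenchyme, and the markers named singly were chosen after their values were seen.

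The labels give groups the same replicate numbers. Deviations of same-numbered samples from their group means correlated over 0.1 in every pair for Bmp4 and its controls (r = 0.225, 0.19 and 0.215), and likewise for Bmp3, Bmp5 and Bmp7, so these numbers were taken as pairs. For Bmp2 (lowest r = 0.018) and Tgfb (lowest r = 0.004) they were not. The main fits did not use the pairs, so their p-values are unpaired for Bmp3, Bmp4, Bmp5 and Bmp7 too. The replicate block was run only as an alternative. For Wnt4 with Bmp4 the limma adjusted p was 0.172 in the main fit and 0.00607 with the block. For Wnt4 in the test among the ligands it was 0.0698 and 0.00125. These Wnt4 calls thus depend on the pairing.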

Additional observations from a re-analysis of the deposited data

Results flagged for a closer look

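Among 14 groups of 4 samples tested, 1 had a sample far from the others. Rspo3 was at 0.887 normalized counts in untreated organoids of replicate IV, which is 1 read, and at 0 in the other 3 untreated samples of the BMP table. With 3 samples tied at 0, any other value above 0 is flagged whatever its size, so this flag rests on a single read. The usual rate of about 1 in 20 chance flags assumes values without ties and does not hold here.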

How the results depend on the processing

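Of 24 single-member results, 13 kept their direction and their side of the threshold under every alternative run, and none of the 24 reversed. Of 101 results on other pathway genes, 94 kept both. Wnt3, Wnt5a and Wnt9b against control with Bmp2, and Wnt3 and Wnt9b with Bmp4, held in every alternative that gave a value, but the pseudocount moved the size of low genes. With pseudocounts of 0.1 and 5, the log2 change of Wnt9b was -5.36 and -2.23 with Bmp2 and -4.77 and -2.13 with Bmp4, and that of Wnt11 was 5.38 and 1.76 with Bmp2 and 4.25 and 1.02 with Bmp4. The filter sets how many members can be tested. With Bmp2, the members called went from 3 to 5 with a mean of at least 1, 5 with no filter and 1 with a mean of at least 50. With Bmp4 they went from 2 to 1 with a mean of at least 50. In the test among the 5 ligands they went from 3 to 5, 5 and 1 under the same filters. Between Bmp2 and Bmp4, 3 became 1 with edgeR, with DESeq2 and with a mean of at least 50, and ranged from 1 to 3 when a sample was left out. With Bmp7, 0 became 1 when only the groups compared were fitted. With Tgfb, 0 became 3 with no filter, and a mean of at least 10 TPM left no member to test. In mesenchyme, 5 became 3 at 4-fold, and in untreated organoids 1 became 0 at 5 TPM. By construction, a looser filter lets more members be tested, and a stricter filter or level leaves fewer to test or count. The cause of the other changes was not tested.

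With the replicate block, 3 members were called with Bmp2, 3 with Bmp4 (Wnt4 was added) and 0 with Tgfb. Wnt4 also passed the test among the 5 ligands under the block (adjusted p = 0.00125, 4 members called). The unfiltered Tgfb calls were lost under it (limma adjusted p = 0.0569 for Wnt5a, 0.113 for Wnt9b and 0.0649 for Wnt11). No other call on a member changed under the block.

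Scaling every sample to one total moved the median log2 change of all genes from -0.03 to -0.49 with Bmp2 and from 0.04 to -0.35 with Bmp4. The called changes of members against control kept their direction and their call. The calls over all genes went from 5420 higher and 5657 lower to 3601 and 7820 with Bmp2, and from 4964 and 4633 to 3080 and 6896 with Bmp4. With Bmp7 they went from 2833 and 1940 to 2575 and 2731, and with Bmp5 from 2429 and 1455 to 2349 and 1893, or 2430 and 2318 with quantile normalization. The fits at a mean of at least 1, the unfiltered Tgfb fits and all alternatives for other pathway genes were added after seeing the data. Levels below about 10 reads limit Wnt2b, Rspo3, Wnt11, Wnt5a in every group except Bmp2, and Wnt9b with Bmp2 and Bmp4. They also limit Wnt4 with Bmp7 and in some samples of the controls, Bmp2 and Bmp3.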
